A study of Mus musculus with 12 samples.

Results

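The interferon response and MHC class I genes are 42 genes chosen by name, of 56791 gene names measured in astrocytes sorted from the hippocampus of mice. They comprise 11 genes of class I antigen presentation, 4 interferon receptor chains, 6 transcription factors, 5 sensors and regulators, 9 antiviral effectors and 7 interferon-inducible GTPases. Interferons are secreted proteins that bind paired receptor chains and signal through JAK kinases and STAT proteins. Type I interferon acts through a complex that includes STAT2 and IRF9 and binds the interferon-stimulated response element (ISRE), whereas interferon gamma acts on the gamma-activated sequence (GAS). Class I molecules, made of a heavy chain and beta-2 microglobulin, display peptides that the proteasome cuts, the TAP transporter carries and tapasin helps to load. Astrocytes carry interferon receptors and are known to respond to both kinds of interferon.

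All mice were adult naive males homozygous for floxed alleles of Tnfrsf1b, the gene of the TNF receptor TNFR2. The group labelled Ctrl (Tnfrsf1bfl/fl) carried the floxed alleles alone, and the group labelled cKO (GfapcreERT2:Tnfrsf1bfl/fl) also carried an inducible Cre driven by the Gfap promoter, so deletion depends on Gfap-expressing cells and on induction, whose dosing the labels used here do not give. Cells were sorted on a FACSAria by the astrocyte surface antigen ACSA-2, and SMART-Seq V4 libraries were sequenced as paired reads. The 12 libraries bear 6 A numbers, A1, A2 and A8 labelled Ctrl and A4, A9 and A10 labelled cKO, each with an S1 and an S2 library. What A and S stand for is not stated, so S1 and S2 were averaged, n is 3 A numbers per genotype, and p-values measure only the spread between A numbers, which may be technical.

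Depth recovered from the table was 17311865 to 22025801 reads in S1 libraries and 28096478 to 35323332 in S2 libraries. Pearson correlation between libraries, across genes on the log2 scale, was 0.980 to 0.984 within an A number and 0.788 to 0.896 between A numbers. A8 had the fewest genes above 0, 21342 and 21572, where the highest library had 26668. The deleted gene did not check the labels: Tnfrsf1b was at 0 in 9 of 12 libraries and had 4 reads in A1 S1. It had 10 and 22 reads in the S1 and S2 libraries of A4, although A4 is labelled cKO. Cells without Cre keep the gene, and A4 had the highest sum of microglial genes (42.4 FPKM). The source of these reads was not tested, and whether they go against the label of A4 cannot be told. The groups are therefore the libraries labelled Ctrl and cKO, and results are also given without A4. The 12 astrocyte markers summed to 4713 to 6209 FPKM (fragments per kilobase, adjusted for library depth) in the A numbers. The 13 microglial genes summed to 16.8 to 19.2 FPKM in Ctrl and 21.6 to 42.4 FPKM in cKO, with Trem2 at 0 in A1, A2, A8 and A4. The 10 oligodendrocyte genes summed to 1002 to 2148 FPKM in Ctrl and 288 to 689.9 FPKM in cKO. In such bulk samples, fewer cells of a type and less RNA per cell cannot be told apart.

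**Figure D1:**
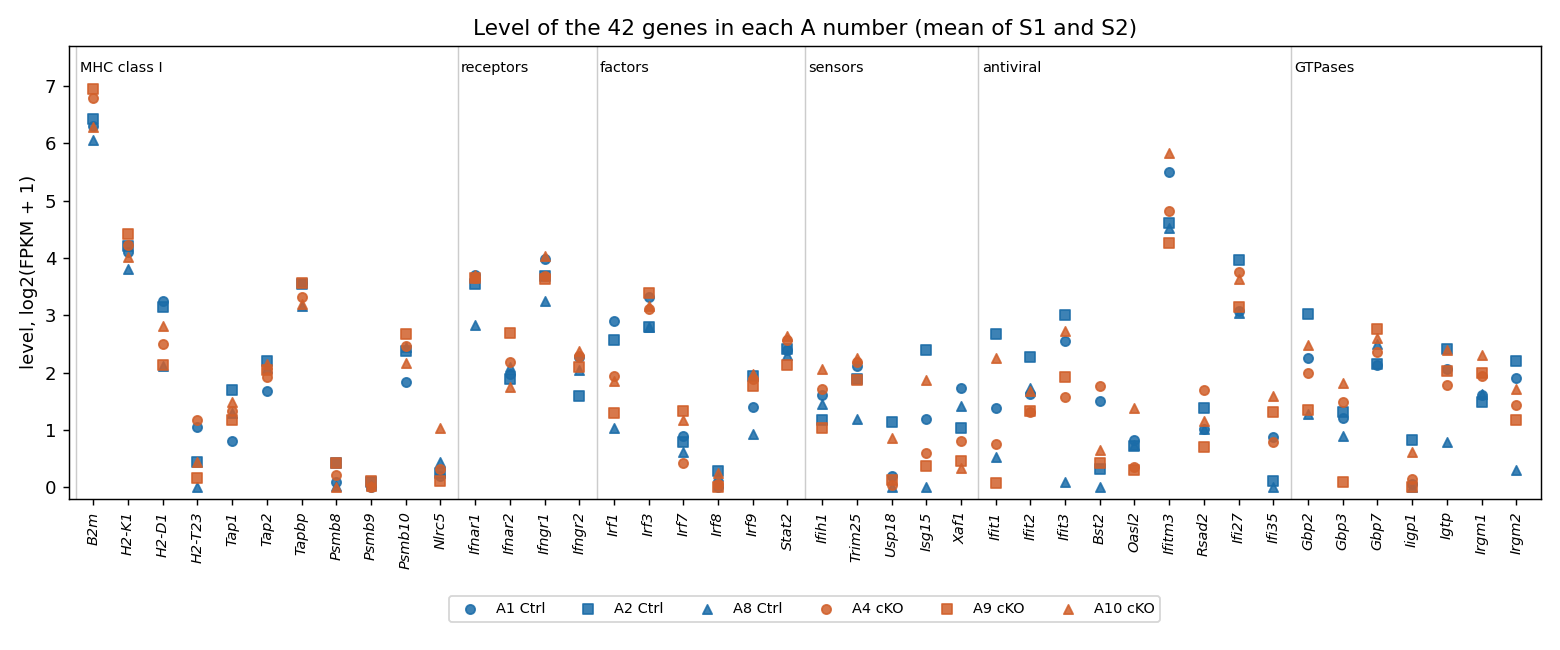
Level of each of the 42 genes, as log2(FPKM + 1), in each A number (mean of S1 and S2); blue marks Ctrl and orange cKO, and genes are ordered by role. B2m and Ifitm3 lie highest, Psmb9 and Irf8 lie near 0, and in most genes the points of the genotypes overlap.

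The stretches of promoter below are shown because they hold the letters of interferon response elements. RefSeq windows of 250 bases before to 50 after the gene start (GRCm38.p6) were at hand for 37 of the 42 genes, all but Tap2, Nlrc5, Usp18, Ifi27 and Iigp1. Each was searched on both strands for GAAANNGAA, the core of an ISRE, and for TTCNNNGAA, the core of a GAS, and matches may overlap. The ISRE core was present in 17 of the 37 genes (45.9%), against 9.76% of 27025 genes with windows of the same length. The GAS core was present in 12 of the 37 (32.4%), against 9.55% of all genes. A match describes letters and shows neither binding nor a cause.

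Capitals mark the matches, and the sequences run 5′ to 3′ along the strand of the gene. Isg15 (chr4:156200856-156200916, minus strand) has 3 overlapping ISRE cores, Bst2 (chr8:71537568-71537628, minus) a GAS core that runs into 2 overlapping ISRE cores, and Irgm1 (chr11:48871416-48871470, minus) 2 overlapping ISRE cores. Ifit1 (chr19:34640760-34640833, plus) and Ifit3 (chr19:34583354-34583455, plus) hold the core on the opposite strand, where it reads TTCNNTTTC, and B2m (chr2:122147528-122147576, plus) holds it once. Igtp (chr11:58199491-58199550, plus) and Irgm2 (chr11:58214882-58214941, plus) hold a GAS core followed by an ISRE core, and these 60 bases are the same at 58 positions. These stretches were chosen after the levels were seen.

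Isg15: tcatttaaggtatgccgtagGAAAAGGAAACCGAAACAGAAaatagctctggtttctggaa
Ifit1: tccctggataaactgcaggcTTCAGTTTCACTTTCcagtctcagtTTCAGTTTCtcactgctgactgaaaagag
Ifit3: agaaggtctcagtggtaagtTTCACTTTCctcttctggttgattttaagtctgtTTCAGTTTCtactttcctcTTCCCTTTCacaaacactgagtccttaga
Bst2: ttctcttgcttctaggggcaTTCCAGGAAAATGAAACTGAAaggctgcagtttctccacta
Irgm1: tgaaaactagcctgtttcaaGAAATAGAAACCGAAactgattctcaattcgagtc
B2m: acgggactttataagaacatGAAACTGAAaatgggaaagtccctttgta
Igtp: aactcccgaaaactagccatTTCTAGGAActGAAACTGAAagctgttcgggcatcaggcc
Irgm2: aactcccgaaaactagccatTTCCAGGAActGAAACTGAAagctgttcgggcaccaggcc

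The comparison of cKO with Ctrl asks whether loss of astroglial TNFR2 goes with another level of these genes in males. Genes with a mean of at least 1 FPKM over the 12 libraries were tested with limma on log2(FPKM + 1), a scale that understates the change of low genes, and p-values were adjusted over all 17540 genes tested. Of the 42 genes 31 were tested, and 11 lay under the filter (H2-T23, Psmb8, Psmb9, Nlrc5, Irf7, Irf8, Usp18, Bst2, Oasl2, Ifi35 and Iigp1). None of the 31 passed: 0 had a limma adjusted p under 0.05, where 0 of all genes did (0%), and the smallest was 0.642. At an unadjusted p under 0.05 there was 1 gene, Irgm1, against 7.69% of all genes tested. The A numbers of the groups did not overlap for 2 of the 31, Irgm1 and Xaf1, against 13% of all genes.

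Of the 31 genes, 21 had a higher and 10 a lower fitted value in cKO, with a median log2 fold change of 0.15, against -0.01 over all genes tested. This balance moved with single A numbers. Without A8 it was 15 higher and 16 lower with a median of -0.01, without A10 it was 17 and 14 with a median of 0.01, and without A4 it was 20 and 11 with a median of 0.13. It was 25 and 6 without A2 (median 0.17), 24 and 7 without A9 (median 0.22), and 21 and 10 without A1 (median 0.19). Upper quartile scaling moved the median of all genes to 0.06 and gave 24 higher and 7 lower.

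**Figure D2:**
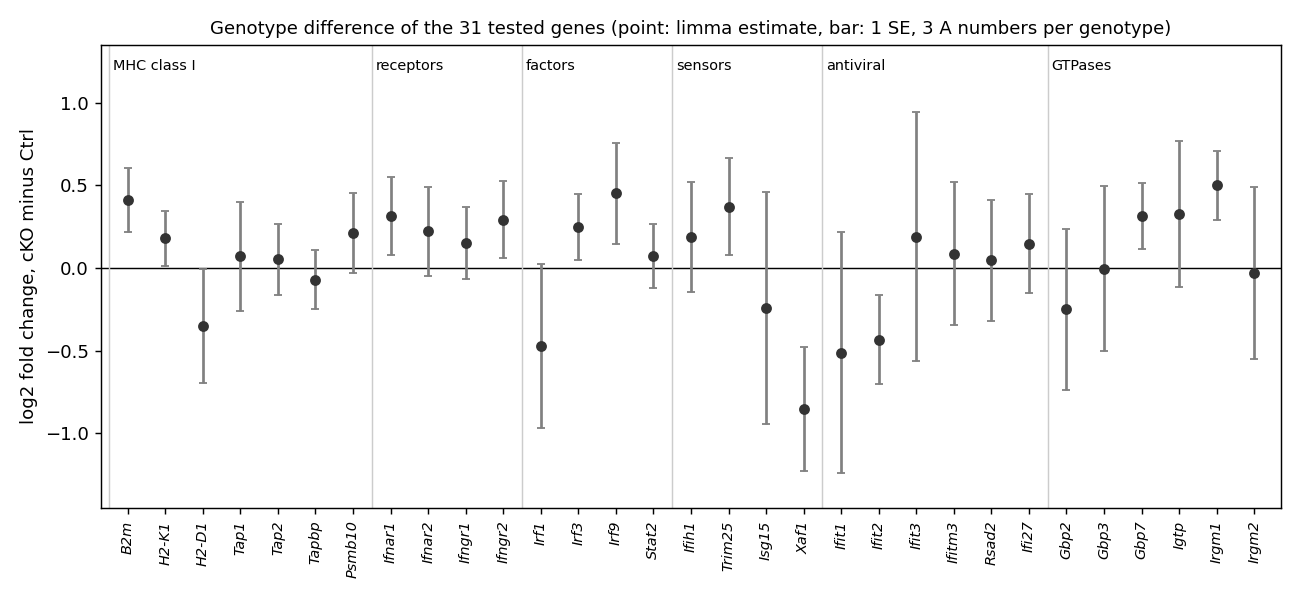
Log2 fold change of cKO minus Ctrl for the 31 tested genes, ordered by role; points are limma estimates on log2(FPKM + 1) and bars 1 standard error, with 3 A numbers per genotype. Irgm1 (0.50) lies highest and Xaf1 (-0.85) lowest, and none passed the adjusted threshold.

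Class I antigen presentation was led by B2m (ENSMUSG00000060802, chromosome 2, start 121978167, end 121983564 as in the deposited table, whose build is not clear), which encodes beta-2 microglobulin. B2m was the most abundant of the 42 genes, at a mean of 89.7 FPKM. It stood at 78.0 FPKM in A1, 85.4 in A2 and 65.6 in A8 of Ctrl, and at 109.8 in A4, 121.9 in A9 and 77.3 in A10 of cKO. A4 and A9 lay above every Ctrl value, and A10 lay within the Ctrl range. The means were 76.3 ± 10.02 and 103.001 ± 23.1 FPKM (SD, n = 3 each), with a log2 fold change of 0.41 (standard error 0.19, adjusted p = 0.703 by limma). Without A4 the log2 fold change was 0.35 and without A10 it was 0.60. The 2 A numbers with the most B2m, A9 and A4, also had the highest microglial sums, 26.2 and 42.4 FPKM, whose part in the level of B2m was not tested.

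The classical heavy chains H2-K1 and H2-D1 present peptides to CD8 T cells. H2-K1 (chromosome 17, start 34214991, end 34219321) was 16.2, 17.5 and 12.98 FPKM in A1, A2 and A8 and 17.6, 20.3 and 15.2 FPKM in A4, A9 and A10. The groups overlapped, and the log2 fold change was 0.18 (standard error 0.17, adjusted p = 0.885 by limma), or 0.062 without A8, 0.081 without A9 and 0.28 without A10. H2-D1 (chromosome 17, start 35481706, end 35486475) was 8.49, 7.79 and 3.31 FPKM in Ctrl and 4.66, 3.36 and 6.003 FPKM in cKO. A1 and A2 were the highest and A8 the lowest, so the Ctrl values spanned those of cKO, at a log2 fold change of -0.35 (standard error 0.34, adjusted p = 0.894 by limma) that ran from -0.71 without A8 to -0.14 without A1, with -0.20 without A2 and -0.18 without A9. The heavy chains are closely alike in sequence, and reads that fit more than 1 of them make their values uncertain. H2-T23, the nonclassical chain Qa-1, was lower, at 1.06, 0.355 and 0 FPKM in Ctrl and 1.26, 0.116 and 0.364 FPKM in cKO.

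Of the peptide supply, the transporter chains Tap1 and Tap2 averaged 1.501 and 3.06 FPKM, and tapasin (Tapbp) 9.57 FPKM. Their log2 fold changes were 0.07, 0.05 and -0.07. The inducible proteasome subunits were unequal: Psmb10 averaged 4.09 FPKM, whereas Psmb8 averaged 0.154 and Psmb9 0.0314 FPKM. Psmb9 had at most 3 reads, the floor used here, in 9 of 12 libraries and Psmb8 in 5. The constitutive subunits that these replace, Psmb5, Psmb6 and Psmb7, averaged 11.6, 13.5 and 8.13 FPKM, a comparison made after the values were seen. Nlrc5, the transactivator of class I genes, was 0.148, 0.180 and 0.363 FPKM in Ctrl and 0.245, 0.0816 and 1.05 FPKM in cKO. A10 alone stood above the Ctrl values of Nlrc5, with 175 and 238 reads in its libraries, and Nlrc5 lay under the filter and was not tested.

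Tap1 and Psmb9 start 226 bases apart on opposite strands of chromosome 17. The 275 bases that their windows share (chr17:34187306-34187580, GRCm38.p6, plus strand) are shown because both genes read outward from them at unlike levels, and they hold neither core.

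Tap1 and Psmb9: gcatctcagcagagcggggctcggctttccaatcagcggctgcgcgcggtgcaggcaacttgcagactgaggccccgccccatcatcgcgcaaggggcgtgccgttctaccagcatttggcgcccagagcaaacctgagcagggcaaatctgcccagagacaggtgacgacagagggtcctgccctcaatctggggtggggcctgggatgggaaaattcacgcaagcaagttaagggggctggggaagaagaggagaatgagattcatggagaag

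All 4 receptor chains were well above the floor. Ifnar1 (chromosome 16, start 91282126, end 91304329), a chain of the type I receptor, was 11.97, 10.7 and 6.09 FPKM in A1, A2 and A8 and 11.6, 11.5 and 12.1 FPKM in A4, A9 and A10. Its cKO values lay close to those of A1 and A2, with A8 far lower, and the log2 fold change of 0.31 (standard error 0.24, adjusted p = 0.852 by limma) was 0.05 without A8 and 0.48 without A1. Ifngr1 (chromosome 10, start 19467697, end 19485977), the ligand-binding chain for interferon gamma, was 14.7, 11.8 and 8.50 FPKM in Ctrl and 11.9, 11.5 and 15.4 FPKM in cKO, with a log2 fold change of 0.15 (standard error 0.22, adjusted p = 0.937 by limma). Here too A8 was lowest, and without it the value was -0.04. The partner chains Ifnar2 and Ifngr2 averaged 3.38 FPKM each, and their log2 fold changes were 0.22 and 0.29. That of Ifngr2 was 0.10 without A2 and 0.44 without A1.

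Among the transcription factors, Irf3, which acts downstream of nucleic acid sensors, averaged 7.67 FPKM, Stat2 4.35 FPKM and Irf9 2.24 FPKM. Irf9 (chromosome 14, start 55841028, end 55847487) was 1.64, 2.84 and 0.909 FPKM in Ctrl and 2.71, 2.40 and 2.94 FPKM in cKO. The cKO values were close together while A2 lay among them, and the log2 fold change was 0.45 (standard error 0.30, adjusted p = 0.831 by limma), or 0.21 without A8 and 0.71 without A2. Stat2 (chromosome 10, start 128106428, end 128128718) was 4.25, 4.34 and 3.97 FPKM in Ctrl and 4.96, 3.39 and 5.20 FPKM in cKO. The Ctrl values lay inside the cKO range, with a log2 fold change of 0.07 (standard error 0.19, adjusted p = 0.970 by limma).

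Irf1, a factor induced by interferon gamma and by other stimuli, spread more. It was 6.49, 4.90 and 1.05 FPKM in A1, A2 and A8 and 2.82, 1.46 and 2.60 FPKM in A4, A9 and A10, so the Ctrl values enclosed those of cKO. Its log2 fold change was -0.47, and it ran from -1.04 without A8 to -0.10 without A1, with -0.28 without A2 and -0.28 without A9. Irf7, the factor that amplifies type I responses, was 0.339 FPKM in A4 and 0.534 to 1.51 FPKM in the other A numbers. Irf8, known from microglia and other myeloid cells, was at most 0.221 FPKM in any A number and at 0 in 4 libraries. Neither was tested.

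The sensors and regulators held the lowest fitted value. Xaf1 (ENSMUSG00000040483, chromosome 11, start 72192455, end 72204559), an interferon-inducible gene linked to cell death, had 2.38 and 2.25 FPKM in the S1 and S2 libraries of A1, 0.862 and 1.21 in A2, and 1.502 and 1.86 in A8. In cKO it had 0.842 and 0.670 FPKM in A4, 0.391 and 0.363 in A9, and 0.285 and 0.235 in A10. Each of the 6 cKO libraries was below every one of the 6 Ctrl libraries, although A4 S1 was close to A2 S1. The means were 1.68 ± 0.636 and 0.464 ± 0.260 FPKM (SD, n = 3 each), which gave a fitted log2 difference of -0.85 (standard error 0.37, adjusted p = 0.666 by limma). The value ran from -1.04 to -0.69 over the fits that omit a single A number, and it was -0.99 without A4 and -1.68 with a pseudocount of 0.1 in place of 1. Xaf1 was not past the threshold under any alternative, with adjusted p from 0.392 to 1.

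Isg15 (chromosome 4, start 156283912, end 156285253) encodes a ubiquitin-like protein and is among the genes type I interferon induces most. It was 1.27, 4.22 and 0 FPKM in A1, A2 and A8 and 0.504, 0.289 and 2.66 FPKM in A4, A9 and A10. Within each genotype 1 A number stood far above the others, A2 with 56 and 76 reads and A10 with 37 and 49, whereas both A8 libraries had 0, where 3 reads would be 0.121 to 0.247 FPKM over the libraries. The log2 fold change was -0.24 (standard error 0.70, adjusted p = 0.975 by limma), and it turned to 0.36 without A2 and to -0.83 without A8. Usp18, which removes Isg15 from proteins and dampens the type I receptor, was 1.21 FPKM in A2, 0.823 in A10 and at most 0.148 in the other A numbers. Ifih1, the RNA sensor MDA5, and Trim25, a ligase of the RIG-I pathway, averaged 1.91 and 2.88 FPKM, with log2 fold changes of 0.19 and 0.37. That of Trim25 was 0.096 without A8 and 0.56 without A1.

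Among the antiviral effectors, Ifitm3, a membrane protein that hinders viral entry, averaged 31.8 FPKM and Ifi27 10.2 FPKM. The Ifit genes, whose proteins bind viral RNA, ranged widely. Ifit1 had 5.09 and 5.63 FPKM in the S1 and S2 libraries of A2 and 3.64 and 3.86 in A10. It had 1.60 and 1.62 FPKM in A1, 0.461 and 0.430 in A8, 0.410 and 0.959 in A4, and 0.0431 and 0.0534 in A9. The order held in S1 and S2 alike at the top and at the bottom: A2 and A10 were highest and A9 was lowest, with 2 and 4 reads. Ifit3 was 7.02 FPKM in A2, 5.59 in A10 and 4.87 in A1, and 0.0656 FPKM in A8, where its libraries had 2 and 4 reads. The log2 fold changes of Ifit1 and Ifit3 were -0.51 and 0.19, each with a standard error above its size (0.73 and 0.76).

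Ifit2 (ENSMUSG00000045932, chromosome 19, start 34528094, end 34553819) was 2.09, 3.83 and 2.31 FPKM in Ctrl and 1.49, 1.53 and 2.20 FPKM in cKO. Only A10 overlapped the Ctrl values, and the log2 fold change was -0.43 (standard error 0.27, adjusted p = 0.809 by limma), or -0.23 without A2. Rsad2 (viperin) averaged 1.29 FPKM with a log2 fold change of 0.05, and Oasl2, not tested, was 0.237 to 1.61 FPKM. Ifi35, also not tested, was 0.828, 0.0734 and 0 FPKM in Ctrl and 0.720, 1.49 and 2.02 FPKM in cKO, and A1 lay above A4. Bst2 (tetherin), which holds virions at the cell surface, had another order: 2.40 FPKM in A4 and 1.85 in A1, but at most 0.574 in the other A numbers.

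The GTPases act against pathogens inside vacuoles, and this group held the smallest unadjusted p. Irgm1 (ENSMUSG00000046879, chromosome 11, start 48752795, end 48762510), a regulator of the other immunity-related GTPases, had 2.15 and 1.98 FPKM in the S1 and S2 libraries of A1, 1.89 and 1.73 in A2, and 2.18 and 2.01 in A8. In cKO it had 2.95 and 2.74 FPKM in A4, 2.71 and 3.22 in A9, and 3.84 and 4.06 in A10. Every one of the 6 cKO libraries exceeded each of the 6 Ctrl libraries, and A10 was the highest. The means were 1.99 ± 0.158 and 3.25 ± 0.607 FPKM (SD, n = 3 each), which gave a fitted log2 difference of 0.50 (standard error 0.21). The limma unadjusted p was 0.0482 and the adjusted p 0.642, so Irgm1 did not pass. The fitted value ran from 0.39 to 0.57 over the fits that omit a single A number, and it was 0.57 without A4.

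Gbp7 (ENSMUSG00000040253, chromosome 3, start 142236103, end 142255910), a guanylate-binding protein, was 3.40, 3.45 and 4.68 FPKM in Ctrl and 4.12, 5.81 and 5.10 FPKM in cKO. A8 lay above A4, and the log2 fold change was 0.31 (standard error 0.20, adjusted p = 0.809 by limma). Gbp2, often used as a marker of reactive astrocytes, was 3.79, 7.13 and 1.43 FPKM in Ctrl and 2.97, 1.55 and 4.56 FPKM in cKO, with A2 and A10 highest and a log2 fold change of -0.25. Gbp3 was 0.0698 FPKM in A9 against 0.854 to 2.51 FPKM in the other A numbers. Igtp (Irgm3) and Irgm2 were both lowest in A8, at 0.726 and 0.226 FPKM, and both highest in A2, at 4.29 and 3.61 FPKM. Their gene models overlap in the deposited table and their sequences are alike, so the split of reads between them is uncertain. Iigp1, not tested, was 0.777 FPKM in A2 and 0.523 in A10 and at most 0.106 in the other A numbers.

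**Figure D3:**
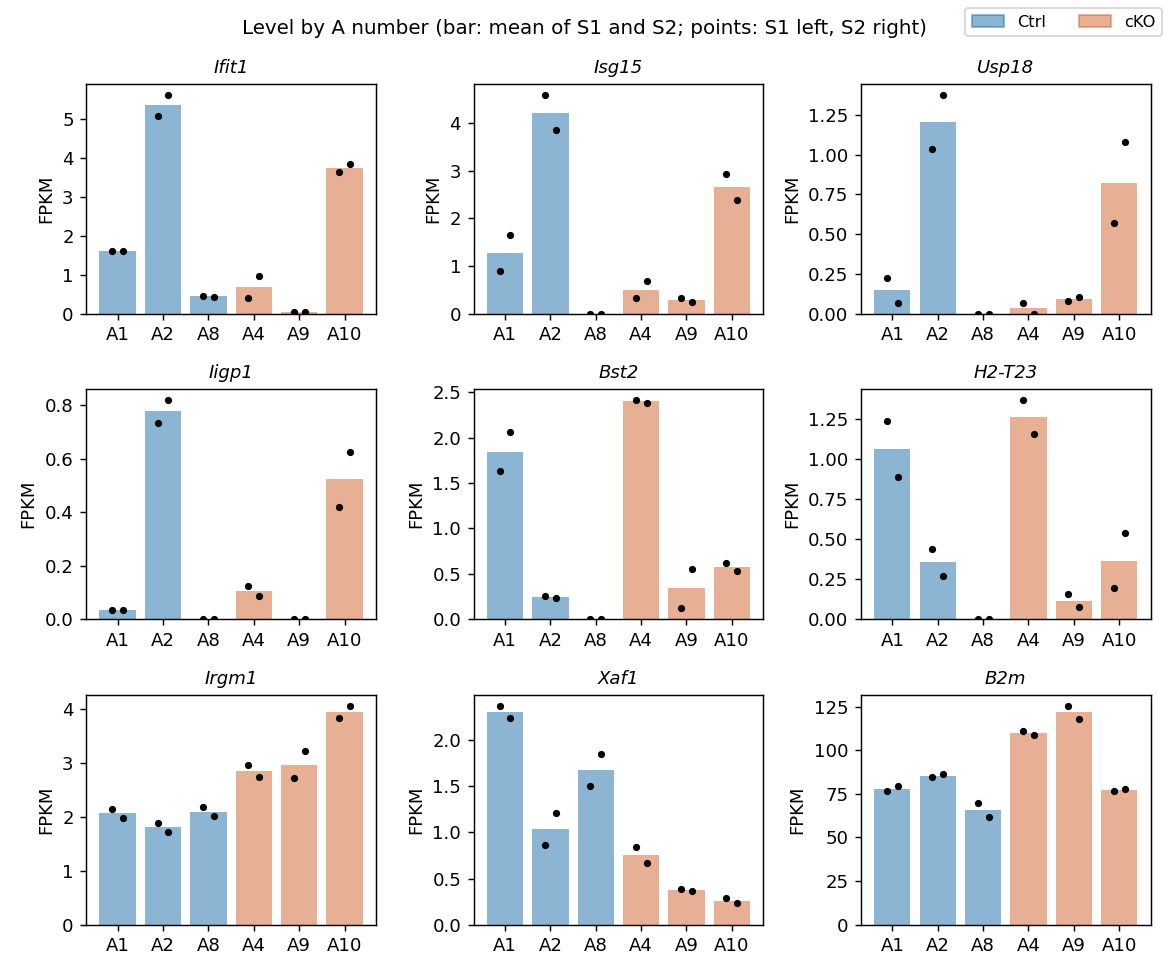
FPKM of 9 genes by A number, with bars for the mean of S1 and S2 and points for the libraries; blue marks Ctrl and orange cKO. Ifit1, Isg15, Usp18 and Iigp1 peak in A2 and A10, Bst2 and H2-T23 in A4 and A1, and the genotypes separate only in Irgm1 and Xaf1 among the 9.

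A pattern across A numbers that does not follow the genotype label was noticed after the values were seen. A2 and A10 were the 2 highest A numbers in 8 of the 31 tested genes, against 6.47% of all genes tested, and in 11 of the 42 genes. The 11 were Tap1, Tap2, Irf8, Irf9, Usp18, Isg15, Ifit1, Ifit3, Gbp2, Iigp1 and Igtp. A2 is labelled Ctrl and A10 cKO. Among the 31 tested genes A2 was the highest in 10 (21.8% of all genes), A10 in 10 (13.9%) and A8 in 0 (20.9%). A8 was the lowest in 15, against 26.1% of all genes. The 7 mural cell markers also summed highest in A10 and A2, at 141.6 and 111.6 FPKM, and lowest in A8, at 66.9 FPKM. Their sums were 109.9 FPKM in A1, 106.1 in A9 and 92.8 in A4. Of these 7 genes only Acta2 had A2 and A10 as the 2 highest A numbers, and Pdgfrb was lowest in A2, at 14.8 FPKM. Gfap was the 1 gene of the 12 astrocyte markers with A2 and A10 as the 2 highest A numbers. It stood at 156.2 FPKM in A10, 111.95 in A2 and 61.4 to 100.8 in the other A numbers. How the mural sums or Gfap relate to the levels of the 11 genes was not tested.

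**Figure D4:**
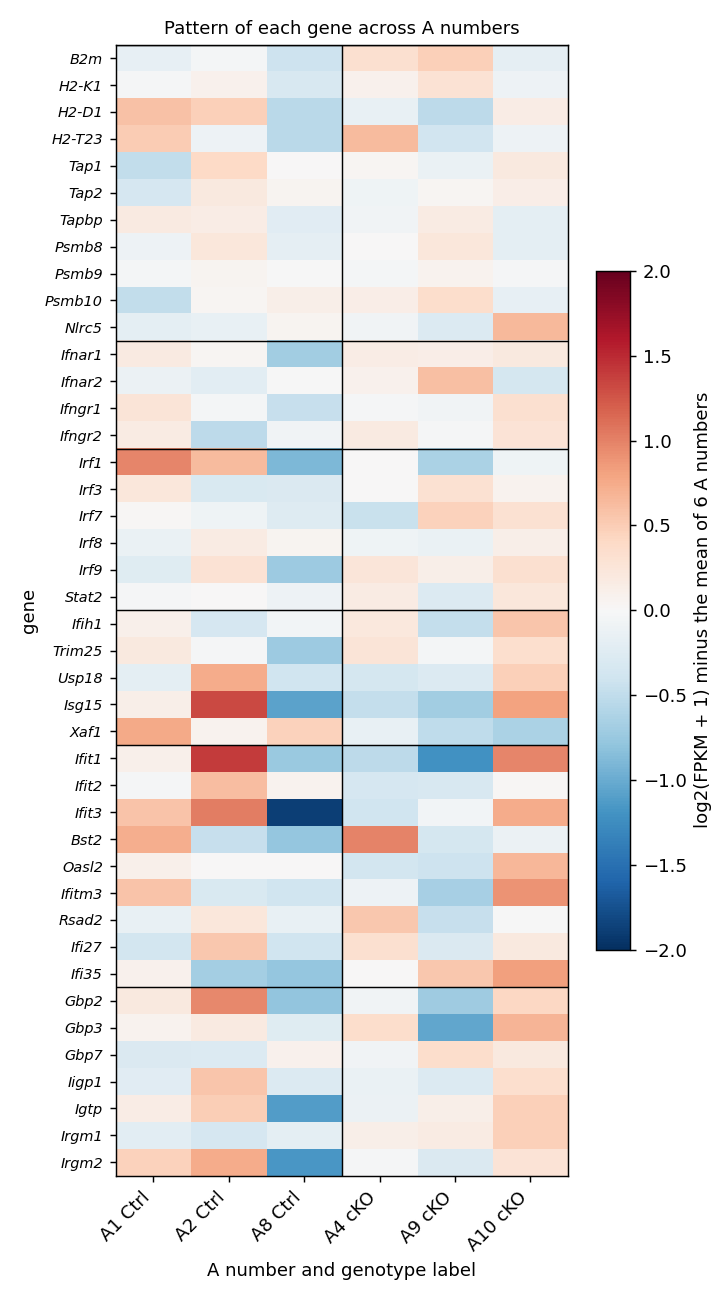
Level of each gene in each A number, as log2(FPKM + 1) minus the mean of the 6 A numbers; red is above and blue below that mean, Ctrl is left of the line and cKO right of it. Isg15, Ifit1, Ifit3 and Gbp2 are red in A2 and A10 together, and many rows are blue in A8.

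Bst2 and H2-T23 were instead highest in A4 and A1. The 8 endothelial genes summed to 60.8 FPKM in A1, 45.1 in A4 and 40.6 in A2, and to 5.25 to 7.42 FPKM in the other A numbers. Both genes were therefore highest in the 2 A numbers with the highest endothelial sums and low in A2. The single endothelial genes were not alike in this order. Cldn5 (23.1 FPKM in A1, 13.6 in A4 and 7.40 in A2), Pecam1, Kdr and Tek were highest in A1 and A4. In Cdh5 and Ly6c1, however, A2 lay above A4, in Flt1 A2 lay above A1, and Slco1a4 was highest in A2 (7.79 FPKM). Some microglial genes had the same order as Bst2 and H2-T23, with A4 highest and A1 next. Among them were Cx3cr1 (1.28 FPKM in A4, 0.389 in A1 and at most 0.125 in the others), Tyrobp (3.31, 0.621 and at most 0.186) and Ctss (3.51, 1.74 and at most 1.73). The part of endothelial or microglial RNA in these levels was not tested. Markers of other leukocytes were near 0: Cd3e, S100a8 and S100a9 were at 0 in every library, and the 8 genes of that list summed to at most 2.11 FPKM in an A number.

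**Figure D5:**
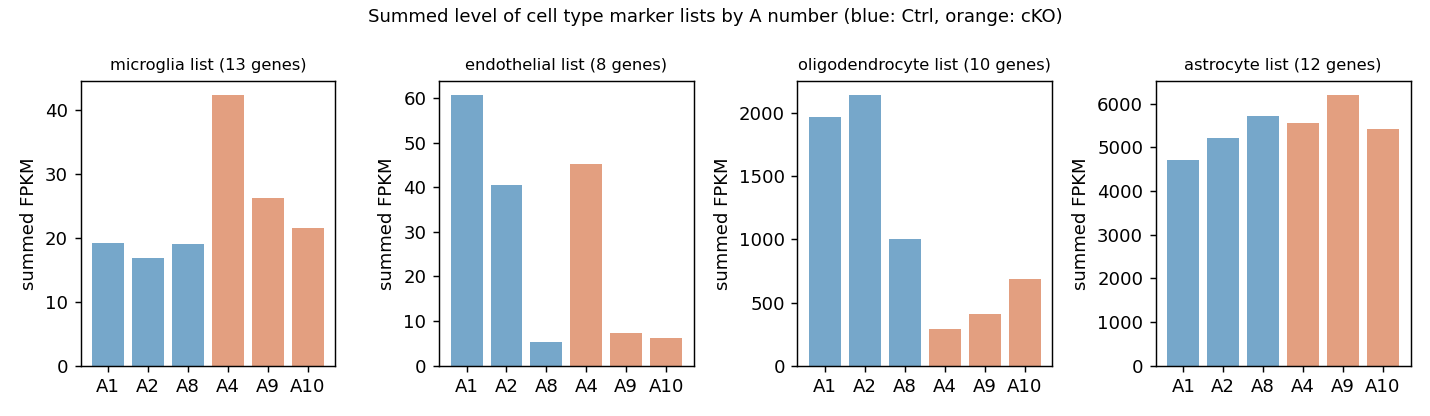
Summed FPKM of the microglial, endothelial, oligodendrocyte and astrocyte marker genes by A number (mean of S1 and S2); blue marks Ctrl and orange cKO, and each panel has its own axis. Endothelial sums are high in A1, A2 and A4, and oligodendrocyte sums are lower in every cKO A number than in every Ctrl one.

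The spread between A numbers was described by role, with no test. The median standard deviation of the 31 tested genes between A numbers of the same genotype was 0.34 on the log2 scale, against 0.32 for all genes tested. It was 0.66 for the GTPases and 0.56 for the antiviral effectors, but 0.28 for antigen presentation. Within an A number, between S1 and S2, the median was 0.10 for the 31 genes and 0.09 for all genes. The 15 tested genes with an ISRE core, such as the Isg15 and Ifit3 stretches shown, had a median spread between A numbers of 0.65, and the 14 tested genes whose windows lack it had 0.30. Of the former 12 and of the latter 6 were highest in A2 or A10, against 35.7% of all genes tested. A2 and A10 were singled out after the levels of these same genes were seen, so this count restates that pattern. The median levels of these genes were 2.88 and 3.73 FPKM. Irgm1, with 2 overlapping cores, had the lowest spread among the genes with the core, 0.15.

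S2 was compared with S1 to see how far these genes differ between libraries of an A number. With A numbers as blocks in limma, 0 of the 31 differed between S2 and S1 at an adjusted p under 0.05, against 243 of 17540 genes (1.39%), and 3 did at an unadjusted p under 0.05, against 11.01% of all genes. The fitted differences ran from -0.14 for Ifngr2 to 0.20 for Igtp. An interaction of genotype with S was found for 0 of the 31 genes by limma adjusted p and for 2 by unadjusted p, against 0 and 5.02% of all genes.

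Other genes of the pathway, 127 in 6 lists, were also read from the fit. Of these 58 were tested, 30 with a higher and 28 with a lower fitted value in cKO and a median log2 fold change of 0.01, and 0 had a limma adjusted p under 0.05. Only Ifi30, which encodes the lysosomal thiol reductase GILT, had an unadjusted p under 0.05, against 7.69% of all genes. It was 0.384, 2.44 and 0.221 FPKM in Ctrl and 2.02, 2.93 and 3.61 FPKM in cKO, with A2 above A4 and a log2 fold change of 1.08 (standard error 0.45, adjusted p = 0.647 by limma).

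Of 9 interferon ligand genes 8 were at 0 in every library, among them Ifnb1 and Ifng, and Ifnk averaged 1.04 FPKM. Of 14 further signalling genes 12 were tested, 4 higher and 8 lower in cKO, and the smallest p were those of Ptpn11 (log2 fold change -0.49), Jak2 (-0.28) and Irf5 (0.47). Jak1 was 23.4 to 23.5 FPKM in Ctrl and 25.1 to 25.4 FPKM in cKO, the 1 gene of the 58 without overlap, against 13% of all genes, and was named for that after its values were seen. Socs3, an inhibitor of JAK signalling also named after its values were seen, was 33.4, 22.4 and 1.79 FPKM in A1, A2 and A8 and 6.06, 3.03 and 10.4 FPKM in A4, A9 and A10. As with Irf1, A1 and A2 were the highest.

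Of 19 nucleic acid sensing genes 12 were tested, 9 higher and 3 lower in cKO, led by Myd88 (log2 fold change -0.38), Tlr3 (0.32) and Mavs (0.17). Tlr3, the endosomal receptor for double-stranded RNA, averaged 46.6 FPKM, well above Tlr7 (0.0736) and Tlr9 (0.0217). Of 54 other interferon-stimulated genes 16 were tested, 10 higher and 6 lower, and 5 were at 0 in every library. Besides Ifi30 these named Shisa5 (0.28) and Lgals3bp (0.21). Of 23 further class I and peptide loading genes 16 were tested, 6 higher and 10 lower, led by Psme2 (0.70), Tapbpl (0.48) and Mr1 (0.19). Psme2, a subunit of the proteasome activator PA28, was 1.02, 2.70 and 2.80 FPKM in Ctrl and 4.66, 4.94 and 2.61 FPKM in cKO, and A10 lay within the Ctrl range (limma adjusted p = 0.710). Of 8 class II genes 1 was tested, H2-DMa (0.08), and H2-Aa, H2-DMb1 and H2-Oa were at 0 in every library.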

How the data were processed

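RNA sequencing libraries of sorted hippocampal astrocytes, 6 per genotype, were analysed from the authors' deposited table of FPKM values for 56941 genes. The submitters' processing notes name FastQC, STAR, featureCounts, DESeq2, mm10 and GRCm38, without roles or versions. The coordinates may be of another build: GENCODE M21 (GRCm38) holds 51948 of the gene identifiers, and 2.77% of these share both ends. Values of 147 repeated symbols were summed, and 310 genes had no symbol. FPKM times length summed to 1000000 in each library, so depth was recovered from the steps of the values. Of the values above 0, 82.7 to 86.3% came out within 0.02 of a whole read, so reads per gene are estimates. Of the small whole values, 72.6 to 80.4% were even in the libraries. If both mates of a pair were counted, 3 or 4 reads stand for fewer fragments, which was not tested. Reads carry no molecular identifiers, and the floor of 3 reads covers counting error only.

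Genes averaging 1 FPKM or more were tested with limma 3.58.1 in R 4.3.3 (lmFit, eBayes with trend, two-sided, Benjamini-Hochberg over 17540 genes) on log2(FPKM + 1), with S1 and S2 averaged per A number. The code was tested on simulated data. All 42 genes are described by role, with full statistics for the 6 smallest unadjusted p and for B2m, H2-K1, H2-D1, Nlrc5 (levels only, since it lay under the filter), Ifnar1, Ifngr1, Irf9, Stat2 and Isg15, and the 3 smallest p of each pathway list are named. The genes and lists were chosen with earlier results of these data known. Ddx58, Tmem173 and H2-L were listed but not matched. Some genes of the lists are not reported here by name. The alternatives were another pseudocount, other filters, upper quartile scaling, robust eBayes, S1 or S2 alone, the A number as a random effect with and without the replicate block, and each A number left out.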

Additional observations from a re-analysis of the deposited data

How the results depend on the processing

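The count of 0 interferon and class I genes past the threshold held under each of 15 alternatives (31 tested, but 9 with a filter of mean FPKM 5), where the smallest limma adjusted p was 0.218, without A8. For all genes, 112 passed when A numbers entered as random effects and 80 with the replicate block added, against 0 otherwise, and 0 to 1 with each A number left out (1 without A1). Since rep1 and rep2 are the S1 and S2 libraries, the block pairs no animals across genotypes. The cause of these counts was not tested. Signs turned for Tapbp (0.0018 under upper quartile scaling), Isg15 (0.037 with a pseudocount of 0.1), Rsad2 (-0.013 in S1 alone), Gbp3 (0.032 under upper quartile scaling and 0.029 in S1) and Irgm2 (0.25 with a pseudocount of 0.1, 0.023 under upper quartile scaling and 0.017 in S2). With each A number left out, signs turned in 17 genes, whose log2 fold changes ran from -0.16 to 0.28 for Tap1, -0.10 to 0.16 for Tap2, -0.20 to 0.013 for Tapbp, -0.022 to 0.45 for Ifnar2, -0.040 to 0.32 for Ifngr1, -0.019 to 0.23 for Stat2, -0.039 to 0.47 for Ifih1, -0.83 to 0.36 for Isg15, -1.13 to 0.058 for Ifit1, -0.70 to 0.75 for Ifit3, -0.34 to 0.44 for Ifitm3, -0.21 to 0.29 for Rsad2, -0.012 to 0.45 for Ifi27, -0.70 to 0.17 for Gbp2, -0.34 to 0.51 for Gbp3, -0.17 to 0.66 for Igtp and -0.62 to 0.34 for Irgm2. Genes with 3 reads or fewer in some libraries, such as Psmb9, could not be told from 0 there at this depth.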
